A study of Mus musculus with 7 samples.

Results

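Cells detect foreign or misplaced RNA and DNA with a small set of proteins that feed into the interferon response, and 10 genes of this system were read out of the transcriptome of hepatocytes lacking WDR6. The genes are *Ddx58*, *Ifih1*, *Dhx58*, *Mavs*, *Mb21d1*, *Tmem173*, *Tlr3*, *Zbp1*, *Irf3* and *Irf7*. They were chosen by gene symbol, with the newer symbols *Rigi*, *Cgas* and *Sting1* taken as *Ddx58*, *Mb21d1* and *Tmem173*, and all 10 were among the 14819 rows of the table and among the 14779 genes tested.

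The samples were primary hepatocytes of male mice, isolated by collagenase perfusion of the liver and kept in culture overnight with no treatment. WT hepatocytes gave 4 libraries. WDR6-WKO hepatocytes gave 3 libraries and came from mice that lack *Wdr6* in the whole body, after removal of exon 2 with CRISPR–Cas9, so cells other than hepatocytes lacked it too. No other difference between the groups is given in the labels. The methods give a default age for purchased C57BL/6J mice and none separately for the donors of these hepatocytes. The methods call replicates biological in general, while the labels do not tie the libraries of one genotype to separate mice, and p-values measure the spread between these libraries.

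The 7 libraries held 17816913 to 23668940 counts on genes. WDR6-WKO replicate 3 stood apart from its group. Its counts differed from those of replicates 1 and 2 with a chi-square per gene of 14.3 and 15.9, against 5.14 between replicates 1 and 2 and 3.80 to 8.23 among WT libraries. Without it, 28.6% of all genes were called, 14.5% higher and 14.1% lower. Member calls that change without it are given with both values. Of such changes in the lists below, only some are given.

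RIG-I (*Ddx58*) and MDA5 (*Ifih1*) are helicases of the cytosol that bind viral or otherwise foreign RNA and signal through MAVS on the outer mitochondrial membrane. The DNA sensor cGAS (*Mb21d1*) makes the second messenger cGAMP, which activates STING (*Tmem173*) on the endoplasmic reticulum, while TLR3 recognizes double-stranded RNA in endosomes. The routes meet at kinases that phosphorylate IRF3 and IRF7, the transcription factors that switch on interferon genes, and several of the sensors are themselves interferon-stimulated genes, so that a cell exposed to interferon carries more of them.

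Of the 10 genes, 6 were higher in WDR6-WKO than in WT hepatocytes at an adjusted p below 0.05, against 6.65% of all genes tested that were called higher. They were *Zbp1*, *Dhx58*, *Irf7*, *Ddx58*, *Ifih1* and *Tlr3*, with fold changes from 1.28 to 2.18. The other 4, the adaptor *Mavs*, the DNA-sensing pair *Mb21d1* and *Tmem173*, and *Irf3*, were not called. No member was called lower by edgeR's quasi-likelihood test or by DESeq2, against 6.18% of all genes, and 1 of them, *Mavs*, was lower at an unadjusted p below 0.05. In either direction 12.8% of all genes were called. Without WDR6-WKO replicate 3 the same 6 genes were called higher, with log2 fold changes of 1.20 for *Zbp1*, 0.99 for *Dhx58*, 1.04 for *Irf7*, 0.47 for *Ddx58*, 0.30 for *Ifih1* and 0.29 for *Tlr3*, and *Mavs* was called lower. The median log2 fold change of the 10 genes was 0.39, and that of all genes tested was 0.01.

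**Figure D1:**
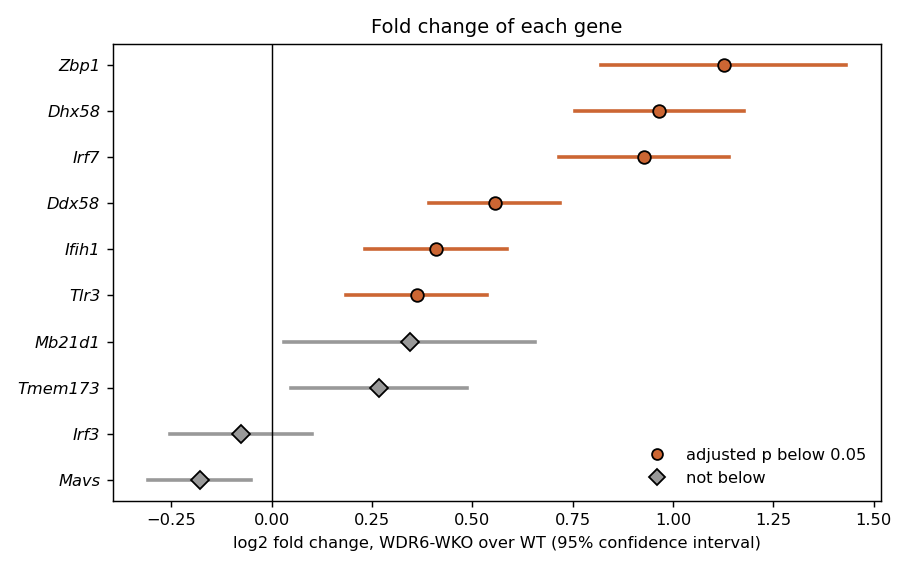
Log2 fold change of each gene, WDR6-WKO over WT, on the x axis, with its 95% confidence interval as a line. Circles are genes with an adjusted p below 0.05 and diamonds are those above it, and all 6 circles lie to the right of 0, from *Tlr3* at 0.36 to *Zbp1* at 1.13.

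Other ways of counting gave similar pictures. By the thresholds of the study, a log2 fold change of 0.35 or more in size with an unadjusted p below 0.05, 6 of the 10 were higher, against 6.42% of all genes. By ranges alone, all 3 WDR6-WKO libraries lay above all 4 WT libraries for 8 of the 10 genes, against 11.8% of all genes. The opposite arrangement was seen for *Mavs*, against 11.7% of all genes. *Irf3* was the one gene whose groups overlapped.

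DNA before the RefSeq start sites is shown here so that genes that rose and genes that were not called can be set side by side. These starts can differ from the GENCODE gene spans given below. The 100 bases printed for *Tlr3* lie inside its span, and those for *Irf7* and *Ddx58* partly so. RefSeq start sites on GRCm38.p6 were used for 7 of the 10 genes. Windows of 300 bases, from 250 before to 50 after the start, were searched on both strands. The letters GAAANNGAAA (the core of the interferon-stimulated response element, ISRE) and AANNGAAA (an IRF core, which every ISRE core contains) were searched, together with TTCNNNGAA (the GAS element that binds STAT dimers). Capitals mark matches to the IRF and ISRE cores. The first pair of lines covers the ISRE cores, which lie just after the start in both helicase genes, and the remaining lines give the 100 bases before the start, all read 5′ to 3′ along the strand of the gene.

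*Ddx58* chr4:40239804-40239833, minus strand: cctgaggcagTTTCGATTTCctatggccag
*Ifih1* chr2:62646206-62646235, minus strand: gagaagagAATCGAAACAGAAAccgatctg
*Ddx58* chr4:40239826-40239925, minus strand: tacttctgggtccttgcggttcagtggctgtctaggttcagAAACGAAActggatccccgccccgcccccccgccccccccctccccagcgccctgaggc
*Ifih1* chr2:62646256-62646355, minus strand: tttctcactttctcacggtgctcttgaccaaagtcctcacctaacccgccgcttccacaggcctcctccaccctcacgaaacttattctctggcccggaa
*Tlr3* chr8:45410381-45410480, minus strand: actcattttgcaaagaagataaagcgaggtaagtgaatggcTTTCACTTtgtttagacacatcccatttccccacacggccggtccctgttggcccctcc
*Irf7* chr7:141266425-141266524, minus strand: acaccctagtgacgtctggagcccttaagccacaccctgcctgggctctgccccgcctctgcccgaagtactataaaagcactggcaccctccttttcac
*Mavs* chr2:131233963-131234062, plus strand: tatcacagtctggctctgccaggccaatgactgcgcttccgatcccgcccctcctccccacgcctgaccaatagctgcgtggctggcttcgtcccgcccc
*Irf3* chr7:44997548-44997647, plus strand: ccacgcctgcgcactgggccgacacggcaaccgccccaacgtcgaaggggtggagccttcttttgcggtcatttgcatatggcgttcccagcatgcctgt
*Mb21d1* chr9:78443238-78443337, minus strand: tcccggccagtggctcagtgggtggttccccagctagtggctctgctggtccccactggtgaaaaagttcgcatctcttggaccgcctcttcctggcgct

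An ISRE core was found in 2 of the 7 windows, those of *Ifih1* and *Ddx58*, and in 3.44% of the 32851 promoter windows of the table. In *Ifih1* it spanned bases 33 to 42 after the start, and in *Ddx58* it lay on the opposite strand at bases 3 to 12. The IRF core alone is common, in 23.9% of all windows, and was found in *Ifih1*, *Ddx58* and *Tlr3*. In both *Ddx58* and *Tlr3* a match began 59 bases before the start. Neither core matched in the windows of *Irf7*, *Mb21d1*, *Mavs* and *Irf3*, which says only that these letters are not there. The GAS letters, present in 8.30% of all windows, matched in none of the 7. *Dhx58*, *Zbp1* and *Tmem173* were not among the 7 windows. Any window on chromosome 18, where *Tmem173* lies, was left out of the 7.

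The RNA helicases rose together. *Ddx58* lies on chr4:40203773-40239828 (GRCm38, GENCODE annotation, minus strand) and encodes RIG-I, the sensor of RNA with a 5′ triphosphate. It was counted at 63.5, 72.2, 79.7 and 72.4 CPM in the WT libraries and at 99.2, 100.7 and 117.5 CPM in the WDR6-WKO libraries. CPM are counts relative to a fixed library total after TMM scaling in edgeR, and values of a group are always given in the order of the replicate numbers, 1 to 4 for WT and 1 to 3 for WDR6-WKO. The lowest WDR6-WKO library was well above the highest WT library. Means ± s.d. were 71.9 ± 6.60 (n = 4) and 106 ± 10.2 CPM (n = 3), and the log2 fold change was 0.56 (SE 0.08, adjusted p = 0.000202 in edgeR's quasi-likelihood test).

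*Ifih1*, on chr2:62595798-62646255 (minus strand), encodes MDA5, which binds long double-stranded RNA. It was counted at 55.8, 56.2, 60.6 and 57.7 CPM in the WT libraries and at 77.1, 64.7 and 87.9 CPM in the WDR6-WKO libraries. The WT libraries were close together and the WDR6-WKO libraries were spread, with replicate 2 only a little above the WT range. The log2 fold change was 0.41 (SE 0.08, adjusted p = 0.00440 by edgeR).

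*Dhx58*, on chr11:100694884-100704271 (minus strand), encodes LGP2, a helicase without signalling domains that modulates the other RIG-I-like receptors. The WT libraries stood at 9.13, 10.1, 12.0 and 9.99 CPM and the WDR6-WKO libraries at 21.1, 19.9 and 19.4 CPM. The WDR6-WKO libraries were nearly level with each other, at 20.1 ± 0.865 CPM (mean ± s.d., n = 3), and about double the WT mean of 10.3 ± 1.22 CPM (n = 4). With a fold change of 1.95 (95% confidence interval 1.69 to 2.26) and an adjusted p of 1.02e-05 by edgeR, *Dhx58* had the smallest p of the 10 genes. Its exons share 141 bases with the antisense transcript *Dhx58os*, and since the strand of the counted reads is not given in the sources used here, reads of the pair cannot be told apart.

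*Mavs*, on chr2:131234063-131248025 (plus strand), encodes the mitochondrial adaptor on which RIG-I and MDA5 converge. Its level did not follow that of the helicases. It was counted at 57.8, 55.5, 52.0 and 57.8 CPM in the WT libraries and at 48.6, 48.2 and 51.1 CPM in the WDR6-WKO libraries. All WDR6-WKO libraries lay below all WT libraries, with a narrow gap between WT replicate 3 and WDR6-WKO replicate 3. The log2 fold change was -0.18 (95% confidence interval -0.31 to -0.05) and did not pass after adjustment (adjusted p = 0.0640 by edgeR). Without WDR6-WKO replicate 3 it was -0.21 and passed, with an adjusted p of 0.00786 by edgeR.

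**Figure D2:**
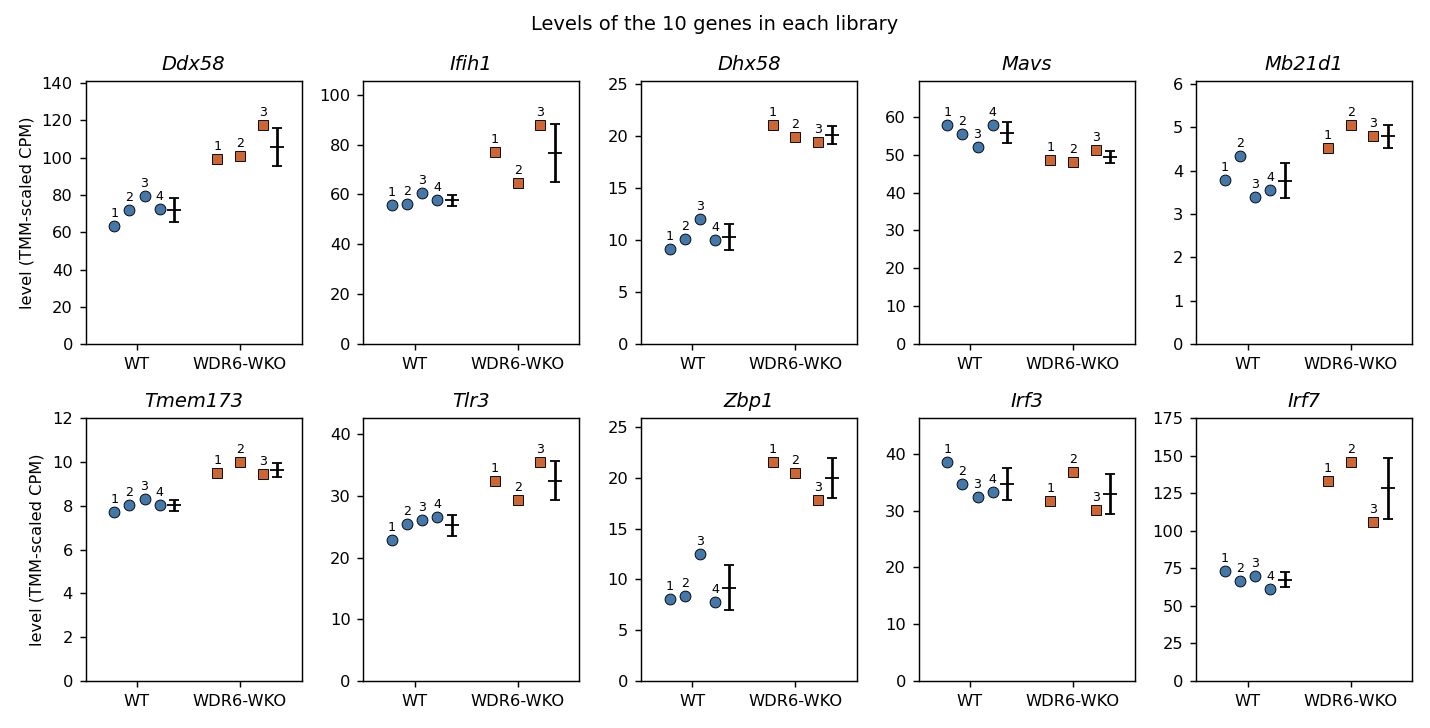
Level of each gene in TMM-scaled CPM (y axis, from 0, a separate scale for each gene) in the 4 WT libraries (blue circles) and the 3 WDR6-WKO libraries (orange squares), numbered by replicate, with the mean and s.d. of each group in black. *Dhx58*, *Zbp1* and *Irf7* show the widest gaps between the groups, *Mavs* is the one gene with all WDR6-WKO points below the WT points, and *Irf3* overlaps.

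Neither gene of the DNA-sensing pair was called. *Mb21d1*, on chr9:78430526-78443237 (minus strand), encodes cGAS and was among the least counted genes, with 64 to 109 counts a library. The levels were 3.78, 4.35, 3.40 and 3.56 CPM in the WT libraries and 4.53, 5.06 and 4.80 CPM in the WDR6-WKO libraries. The groups were separate by a small margin, between WT replicate 2 and WDR6-WKO replicate 1. The log2 fold change was 0.34, with a 95% confidence interval of 0.03 to 0.66 and an adjusted p of 0.140 by edgeR. Exons of *Mb21d1* share 201 bases with the pseudogene *Gm8093* on the opposite strand, and 0.72% of its 50-base sequences occur in transcripts of other genes.

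*Tmem173*, the gene of STING, was counted at 7.71, 8.01, 8.30 and 8.03 CPM in the WT libraries and at 9.47, 10.0 and 9.44 CPM in the WDR6-WKO libraries. Both groups were tight and did not overlap. The log2 fold change of 0.27 (95% confidence interval 0.05 to 0.49) did not pass after adjustment (adjusted p = 0.103 by edgeR). For neither gene of the pair does this show that the genotypes were alike, since both intervals lie above 0.

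*Tlr3*, on chr8:45395665-45411080 (minus strand), encodes the endosomal sensor of double-stranded RNA, which signals through the adaptor TRIF rather than MAVS. It stood at 22.8, 25.5, 26.1 and 26.7 CPM in the WT libraries and at 32.5, 29.3 and 35.6 CPM in the WDR6-WKO libraries. As with *Ifih1*, WDR6-WKO replicate 2 was the lowest and replicate 3 the highest of its group, and none reached the WT range. The log2 fold change was 0.36 (SE 0.08, adjusted p = 0.00926 by edgeR). The exons of *Tlr3* share 381 bases with the antisense gene *Gm45542*.

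*Zbp1*, on chr2:173206612-173218923 (minus strand), encodes a sensor of left-handed Z-form nucleic acids that can engage RIPK3 and trigger necroptosis. Its counts gave 8.07, 8.38, 12.5 and 7.78 CPM in the WT libraries and 21.6, 20.5 and 17.8 CPM in the WDR6-WKO libraries. WT replicate 3 stood above the other WT libraries but below every WDR6-WKO library. The fold change of 2.18 (95% confidence interval 1.77 to 2.70, adjusted p = 0.000127 by edgeR) was the largest of the 10 genes. Without WT replicate 3 the log2 fold change was 1.31 in place of 1.13.

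Of the transcription factors at the end of the pathway, *Irf7* rose and *Irf3* was not called. *Irf7*, on chr7:141262706-141266481 (minus strand), encodes the factor that amplifies interferon production and is itself induced by interferon. It was counted at 72.9, 66.4, 69.8 and 60.9 CPM in the WT libraries and at 133, 146 and 106 CPM in the WDR6-WKO libraries. Even the lowest WDR6-WKO library, replicate 3, was far above the highest WT library. The means were 67.5 ± 5.14 (n = 4) and 128 ± 20.4 CPM (n = 3), a log2 fold change of 0.93 (95% confidence interval 0.72 to 1.14, adjusted p = 7.71e-05 by edgeR).

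*Irf3*, on chr7:44997648-45002848 (plus strand), encodes the factor present in resting cells that acts first when a sensor fires. The WT libraries stood at 38.6, 34.6, 32.4 and 33.2 CPM and the WDR6-WKO libraries at 31.7, 36.9 and 30.2 CPM. The groups overlapped, with the highest value in WT replicate 1 and the lowest in WDR6-WKO replicate 3. The log2 fold change was -0.08 (95% confidence interval -0.25 to 0.10, adjusted p = 0.599 by edgeR). The exons of *Irf3* share 88 bases with *Bcl2l12* and those of *Irf7* share 45 bases with *Phrf1*, both on the opposite strand.

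Mean log2 levels were also compared over all 35 arrangements of the libraries, and this exact two-sided permutation test gave p = 0.0286, the smallest it allows, for each of the 6 called genes and for *Tmem173*. The same exact test gave p = 0.0571 for *Mavs* and *Mb21d1* and p = 0.429 for *Irf3*.

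**Figure D3:**
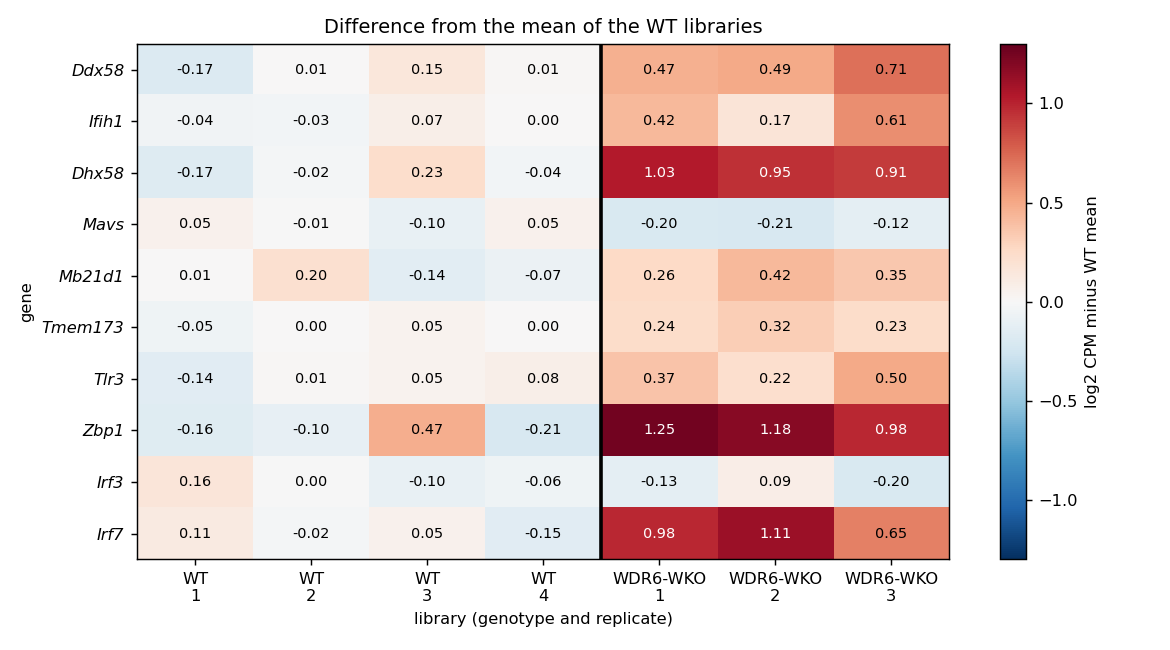
Log2 CPM of each gene (rows) in each library (columns) minus the mean of the WT libraries, in colour (red higher, blue lower) and in figures. The WDR6-WKO columns are red for 8 genes, from 0.17 for *Ifih1* in replicate 2 to 1.25 for *Zbp1* in replicate 1, and blue for *Mavs*.

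The WDR6-WKO libraries did not rank the genes alike. Relative to the WT mean, *Ddx58*, *Ifih1* and *Tlr3* were highest in replicate 3, at 0.71, 0.61 and 0.50 on the log2 scale. In the same library *Irf7*, *Zbp1* and *Dhx58* were at their lowest within the group, at 0.65, 0.98 and 0.91. *Irf7* peaked in replicate 2 at 1.11, where *Ifih1* was at 0.17. The median over the 6 called genes differed little between the libraries, at 0.72, 0.72 and 0.68 in replicates 1 to 3. Among the WT libraries, replicate 3 was the highest for 4 of the 6 called genes and replicate 1 the lowest for 4.

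Ratios within a library compare 2 genes without regard to its depth. The 5 pairs compared were chosen after the values had been seen, so their tests describe these libraries and do not stand apart from the fold changes above. The log2 ratio of *Irf7* to *Irf3* was 0.91, 0.94, 1.11 and 0.87 in the WT libraries and 2.07, 1.98 and 1.81 in the WDR6-WKO libraries. The balance of the IRFs was thus shifted towards *Irf7* in every WDR6-WKO library, by 0.995 on average. The ratio to *Mavs* was higher in WDR6-WKO by 0.73 for *Ddx58* and by 0.58 for *Ifih1*, and the ratio of *Dhx58* to *Ddx58* by 0.41. In these 4 pairs the groups were separate (exact two-sided permutation p = 0.0286 each, 0.0357 after Benjamini-Hochberg adjustment over the 5 pairs). The ratio of *Mb21d1* to *Tmem173* overlapped between the groups, with a difference of 0.08 (exact permutation p = 0.486).

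To compare genes with each other, CPM were divided by the length of the principal transcript in kilobases. On this scale *Irf7* was the most abundant in both groups, at 35.2 ± 2.68 CPM per kilobase (mean ± s.d., n = 4) in WT, against 67.0 ± 10.6 (n = 3) in WDR6-WKO. *Mb21d1* was the least abundant, at 0.932 ± 0.102 (n = 4) and 1.18 ± 0.0650 (n = 3). In WT, the levels of *Ddx58*, *Mavs* and *Irf3* followed *Irf7* and lay between 15.9 and 20.6 CPM per kilobase, with ranges that overlapped. *Ifih1* came next, at 10.2 to 11.1. Below it, *Zbp1* (3.91 to 6.28) overlapped both *Tlr3* (5.17 to 6.05) and *Dhx58* (3.78 to 4.98), while *Tmem173* (3.36 to 3.61) overlapped neither neighbour.

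The order was partly changed in WDR6-WKO hepatocytes. *Ddx58*, at 25.6 to 30.3 CPM per kilobase of principal transcript, did not overlap *Mavs* or *Irf3*, whose ranges were 15.8 to 16.7 and 14.8 to 18.1. *Ifih1*, at 14.1, 11.8 and 16.1 in replicates 1 to 3, overlapped the ranges of that pair through replicate 3 alone. It lay below *Mavs* in each WDR6-WKO library. *Zbp1* (8.96 to 10.9) lay above *Dhx58* (8.03 to 8.73) and *Tlr3* (6.65 to 8.07), of which the last 2 overlapped. With the bases of all annotated exons as the length, *Irf7* and *Mb21d1* kept their places, but *Mavs* in WT (15.5 to 17.3) stood above *Ddx58* (9.01 to 11.3). In WT, *Tmem173* (2.81 to 3.03) then overlapped *Dhx58* (2.79 to 3.67). In WDR6-WKO the ranges of *Ddx58* (14.1 to 16.7) and *Mavs* (14.4 to 15.3) then overlapped, so the separation of this pair rests on the length used. The same holds for *Zbp1* (5.05 to 6.12), which then overlapped *Dhx58* (5.92 to 6.44) and *Tlr3* (5.63 to 6.83). *Ifih1* (7.92 to 10.8) then overlapped *Irf3* (8.76 to 10.7) and lay below the range of *Mavs*.

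**Figure D4:**
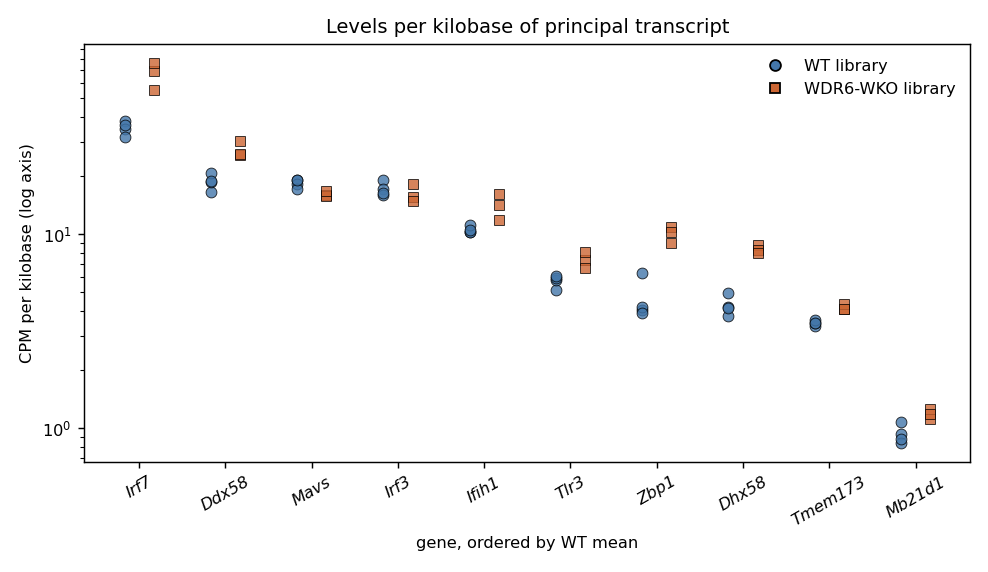
CPM per kilobase of principal transcript on a log axis for each library, WT as blue circles and WDR6-WKO as orange squares, with genes ordered by the WT mean. The levels span from 0.841 for *Mb21d1* to 76.2 for *Irf7*, and *Ddx58*, *Mavs* and *Irf3* overlap in WT, while in WDR6-WKO *Ddx58* lies above the other two at this length but overlaps *Mavs* when all exons are used.

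Genes around the sensors were read from lists written by function, with earlier results of these data known, and values below are log2 fold changes unless given in CPM. Of 29 other sensors of nucleic acids or their products, 6 rose in WDR6-WKO and 23 were not called, with a median log2 fold change of 0.06. Over all genes tested 6.65% were called higher and 6.18% lower, and these shares stand beside the calls of each list below. *Ddx60*, a helicase linked to RIG-I signalling, rose by 1.11 and *Ifi204*, the mouse relative of the DNA sensor IFI16, by 0.90 (adjusted p = 0.000115 and 4.19e-05 by edgeR). The related *Ifi203* rose by 0.79 and *Eif2ak2*, the gene of the RNA-activated kinase PKR, by 0.40. The RNA-binding *Ddx21* and *Zc3hav1*, the latter encoding the antiviral protein ZAP, rose by 0.18 each, but lost the call when single libraries were left out. For *Ddx21* these were WT replicates 1, 2 and 3 and WDR6-WKO replicate 2 (adjusted p up to 0.0678 by edgeR), and for *Zc3hav1* each WT replicate and WDR6-WKO replicate 1 (up to 0.0987). *Aim2*, the inflammasome sensor of DNA, stood at -0.09 and *Tlr7*, the endosomal sensor of single-stranded RNA, at 0.24, neither called (adjusted p = 0.746 and 0.171 by edgeR). Without WDR6-WKO replicate 3, *Dhx9*, *Dhx15* and *Dhx36* were called lower, at -0.17, -0.20 and -0.15, where 14.1% of all genes were called lower.

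Of 30 signalling adaptors and kinases, 4 rose, against 6.65% of all genes called higher, and none was called lower. In either direction the share of calls was near the 12.8% of all genes. The other 26 were not called, and the median was -0.01. The genes that rose were *Trim25* (0.28) and *Rnf135* (0.36), ubiquitin ligases that activate RIG-I, *Trim21* (0.45), a cytosolic antibody receptor with ligase activity, and *Ifi35* (0.45). *Rnf135* and *Trim21* did not pass without some libraries. For *Rnf135* these were WT replicates 1, 3 and 4 and WDR6-WKO replicate 2 (adjusted p up to 0.0782 by edgeR), and for *Trim21* WT replicates 1 and 2 and WDR6-WKO replicates 1 and 2 (up to 0.110). *Tbk1*, the kinase that phosphorylates IRF3, stood at -0.02 (adjusted p = 0.819 by edgeR). Its relative *Ikbke* at -0.15 and *Ticam1*, the gene of TRIF, at -0.24 were below WT in every WDR6-WKO library without passing (adjusted p = 0.0713 and 0.0687 by edgeR). Without WDR6-WKO replicate 3 the list had 7 genes called higher and 2 lower, where 28.6% of all genes were called.

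Downstream of ZBP1, *Ripk3* stood at 0.05 (adjusted p = 0.791 by edgeR). Of 9 genes of the cell death branch 2 were called higher, against 6.65% of all genes. *Mlkl*, the executor of necroptosis, rose by 0.18 and *Pycard*, the inflammasome adaptor ASC, by 0.80. Their adjusted p of 0.0492 and 0.0467 by edgeR were close to the threshold. *Mlkl* passed without WDR6-WKO replicate 3 but not without any other library, nor by DESeq2 or with median-of-ratios size factors, and *Pycard* passed without WT replicate 3 and without WDR6-WKO replicate 3, but not without any other library. The adjusted p reached 0.166 for *Mlkl* and 0.180 for *Pycard*.

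In the list written for restraints on sensing 6 of 27 genes tested were called higher, against 6.65% of all genes. The other 21 were not called, and the median was 0.07. *Usp18*, which removes ISG15 and blunts interferon receptor signalling, rose by 1.04 (adjusted p = 5.64e-08 by edgeR), from 34.1 ± 1.47 (n = 4) to 70.1 ± 4.27 CPM (n = 3). *Trim30a* rose by 0.87, *Adar*, which edits double-stranded RNA so that MDA5 does not see it, by 0.51. *Slc19a1* rose by 0.40 and is not a restraint by its known role, as this carrier can import cyclic dinucleotides, the ligands of STING. *Nlrc5* and *Tnfaip3*, the gene of the ubiquitin-editing enzyme A20, rose by 0.30 and 0.29. The nuclease genes *Samhd1*, *Rnaseh2a*, *Rnaseh2b* and *Rnaseh2c* stood at 0.17, 0.04, 0.04 and 0.27 and were not called. *Samhd1* was called higher with library sizes alone (0.20, adjusted p = 0.0280 by edgeR). *Rnaseh2c* was called higher without WDR6-WKO replicate 3 (0.47, adjusted p = 0.00105 by edgeR). Without that library the list had 8 genes called higher and 1 lower, where 28.6% of all genes were called.

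Of the 9 other genes of the IRF family and its cofactors, *Irf9*, the DNA-binding subunit of the ISGF3 complex, rose by 0.60 (adjusted p = 3.75e-05 by edgeR). *Irf2*, an antagonist of IRF1, fell by 0.23 (adjusted p = 0.0444 by edgeR). *Irf2* was not called without WT replicates 2, 3 or 4 or WDR6-WKO replicates 1 or 2, nor with library sizes alone (adjusted p up to 0.219 by edgeR). *Irf1*, an interferon-inducible activator, stood at 0.02.

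Among 11 genes of the interferon receptors and their signalling, *Stat2*, which binds IRF9, rose by 0.65 (adjusted p = 3.02e-06 by edgeR). In the other direction, *Jak2* fell by 0.29, *Ifnar1*, a subunit of the type I receptor, by 0.22 and *Ifngr1* by 0.20. Without WDR6-WKO replicate 3 the list had 4 genes called higher and 4 lower, where 28.6% of all genes were called. *Ifnar1* was not called without WT replicates 3 or 4 or WDR6-WKO replicates 1 or 2, and *Ifngr1* without WT replicate 4 or WDR6-WKO replicates 1 or 2 (adjusted p up to 0.0927 and 0.0615 by edgeR). The 21 interferon genes of the list were not analysed here, as none was among the rows of the table, whose smallest total over the 7 libraries is 50 counts.

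**Figure D5:**
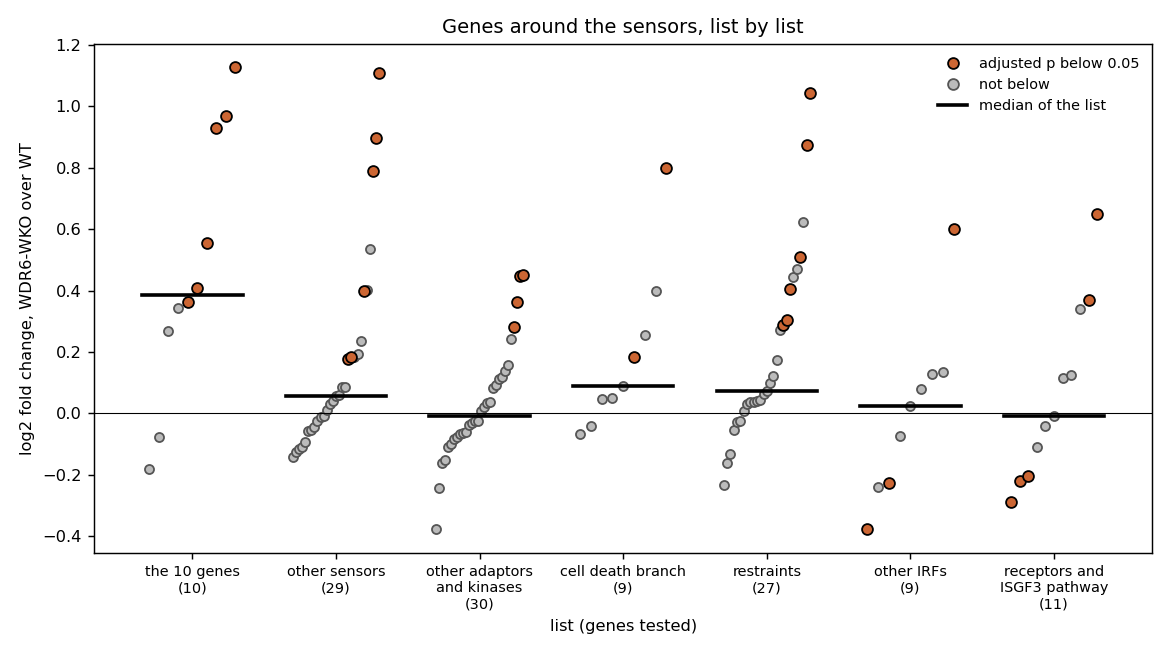
Log2 fold change, WDR6-WKO over WT (y axis), of every tested gene of each list (x axis, number of genes tested in brackets), with called genes in orange, the others in grey and the median of each list as a black line. The median is 0.39 for the 10 genes and between -0.01 and 0.09 for the other lists, in which a few called genes stand above the rest.

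The genes whose log2 CPM followed *Dhx58* most closely over the 7 libraries were *Oas3* and *Gbp3*, with Pearson's r of 0.996 each, *Efnb2* at 0.993, and *Apol9a* and *Scarf2* at 0.991. The libraries fall into 2 genotypes, which alone gives high values for any gene that differs between them, so these are descriptions. *Oas3*, a synthetase of the RNase L pathway, had a log2 fold change of 1.33, *Gbp3* 1.49 and *Apol9a* 1.59, while *Efnb2*, the gene of a membrane-bound ephrin, had 0.32.

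The targeted gene *Wdr6* was at 5.39% of its WT level, and its groups were separate. Among hepatocyte markers *Alb*, the gene of albumin, stood at 7366 ± 730 CPM in WT (mean ± s.d., n = 4). In WDR6-WKO it was at 6480 ± 363 CPM (n = 3). Other markers of the list ranged widely in WT. *Apob* was at 5845, *Apoa1* at 719, *Ttr* at 471, *Hnf4a* at 385 and *Serpina1c* at 107 CPM. *Cps1* and *Asgr1* were lower, at 39.4 and 13.8 CPM. *Tat* and *Cyp3a11*, markers of mature hepatocytes, were at 1.50 and 4.20 CPM in WT. Of 10 hepatocyte markers 4 were called lower, against 6.18% of all genes, and the list had a median of -0.35. These were *Apoa1*, *Cps1*, *Hnf4a* and *Asgr1*, at -0.69, -0.69, -0.27 and -0.43. *Asgr1* was not called without WT replicates 2, 3 or 4 or any of the WDR6-WKO replicates (adjusted p up to 0.133 by edgeR).

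Markers of other liver cells were present, and some were higher in WDR6-WKO. The 15 Kupffer cell and macrophage markers, genes of cells that carry many of the same sensors, summed to 1071 to 1173 CPM in the WT libraries and to 1353, 1435 and 1238 CPM in WDR6-WKO replicates 1 to 3. Of them 4 were called higher, against 6.65% of all genes, and the median was 0.22. These were *Lyz2*, *C1qb*, *C1qc* and *Fcgr1*, at 0.64, 0.30, 0.48 and 0.75. By sign 13 of the 15 were higher. Among those not called by edgeR, *Clec4f*, *Vsig4*, *Cd5l*, *Marco*, *Adgre1* and *C1qa* stood at 0.10, 0.22, 0.18, 0.46, 0.25 and 0.53. *Timd4* stood at -0.48, and *Marco* was called by DESeq2. Without WDR6-WKO replicate 3, *Marco*, *C1qa* and *Cd5l* were called higher, at 0.64, 0.76 and 0.25. *C1qb* was not called without WT replicates 1 or 2 or WDR6-WKO replicates 1 or 2 (adjusted p up to 0.118), and without WDR6-WKO replicate 3 the list had 9 genes called higher, where 14.5% of all genes were called higher. Of the 5 cholangiocyte markers, *Spp1* rose by 0.31 and *Sox9* by 0.20. *Sox9* was not called without WT replicates 1, 2 or 3 or WDR6-WKO replicates 1 or 2 (adjusted p up to 0.0937 by edgeR). *Krt19*, *Krt7* and *Epcam* stood at -0.05, -0.10 and 0.34 and were not called. The 5 markers summed to 3068 to 3360 CPM in WT and 3713 to 4306 CPM in WDR6-WKO. Most of this sum was *Spp1*, with means of 2980 and 3693 CPM.

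Of 8 stellate cell markers *Dcn* rose by 0.28 and *Rgs5* fell by 0.48, with sums of 423 to 467 and 445 to 469 CPM. *Dcn* was not called without WT replicates 1 or 2 or any of the WDR6-WKO replicates (adjusted p up to 0.0913 by edgeR). The 9 endothelial markers had a median of -0.02 and summed to 320 to 364 CPM in WT and 302 to 358 CPM in WDR6-WKO. Of 11 lymphocyte and dendritic cell markers 1 was tested, *Itgax*, which rose by 1.04. The part of these cells in the levels of the sensors was not tested. In bulk RNA, more cells of a type cannot be told apart from more RNA of a gene per cell.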

How the data were processed

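RNA-seq of primary hepatocytes from 4 WT and 3 WDR6-WKO samples was used. The authors aligned the reads to the mouse genome (mm10) with Bowtie2 2.2.3 and deposited whole-number counts of reads on each gene symbol, not normalized. The counting tool, annotation and strand setting are not given in the sources used here. The table has 14819 rows, of which 21 carry spreadsheet dates for symbols, and none totals below 50, so genes with fewer reads could not be examined. Columns were matched to samples by genotype and replicate number.

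Counts were scaled with TMM, filtered with filterByExpr and tested with the robust quasi-likelihood test of edgeR 4.0.16 in R 4.3.3, WDR6-WKO against WT, without covariates. Benjamini-Hochberg adjustment of p covered all 14779 genes tested, and "called" means an adjusted p below 0.05. The study used DESeq2, run here as an alternative (1.42.0). Library totals are given with the results. The biological coefficient of variation was 7.40%, and precision at low counts is limited by depth. Libraries of a genotype had Spearman's rho of 0.992 to 0.996 and differed by more than sampling noise, most of all WDR6-WKO replicate 3, so each counted as 1 sample. Single values were tested by exact permutation. The fits were tested on simulated data.

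The members and lists were chosen with earlier results of these data known. Named are all members, *Wdr6*, from each pathway list the called genes (up to the 6 smallest p) and genes central to its function, the called markers, and the 5 genes most correlated with the called member of smallest p. Lists covered other sensors, adaptors and kinases, cell death, restraints, IRFs, interferon genes, receptors, and markers of hepatocytes, Kupffer cells, endothelium, stellate cells, cholangiocytes, and lymphocytes and dendritic cells. Coordinates, exon overlaps and lengths came from the GENCODE annotation of GRCm38, and the windows around start sites from RefSeq. Alternatives were DESeq2, edgeR with median-of-ratios size factors or with unscaled library sizes, the filter dropped or set to 10 counts in each library, the replicate number as a block, each library left out in turn, and other rules for calls. Some genes of these lists are not reported here.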

Additional observations from a re-analysis of the deposited data

Results flagged for a closer look

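*Zbp1* in WT replicate 3, at 12.5 CPM, stood apart from the other 3 WT libraries, which lay between 7.78 and 8.38 CPM. The gap was 0.873 of the range of the group, above Dixon's critical value (95%) for 4 samples. This test was made for the WT levels of the 10 genes and *Zbp1* was the 1 gene past the limit, where chance flags about 1 in 20.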

How the results depend on the processing

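The count of 6 members called higher did not change under any of the 13 refits, which comprised other size factors, other filters, DESeq2, the replicate block and each of the 7 libraries left out. Of 130 log2 fold changes of members so recomputed, none changed sign and 129 kept their side of the threshold. The exception was *Mavs*, which was called without WDR6-WKO replicate 3, so that the number of members called lower ranged from 0 to 1 over the left-out libraries, and it was 1 where the groups need only not overlap. Over the whole table the count of called genes was less stable. With 1 library left out it ranged from 1032 (without WDR6-WKO replicate 2) to 4233 (without WDR6-WKO replicate 3), and that of genes called higher from 570 to 2150, against 1897 and 983 with all libraries. By ranges that do not overlap, 3479 genes differed and 1747 were higher. The cause was not tested. The groups share replicate numbers, and deviations of same-numbered libraries correlated at 0.192, 0.0904 and 0.129. Those of differently numbered libraries correlated at -0.332 to 0.28, so these values do not decide whether the samples are paired. The labels state no pairing, and the numbers were not taken to pair the samples. With the replicate block 1762 genes were called, and 6 members, while *Rnf135*, *Irf2*, *Asgr1* and *C1qb* were not called and the markers *Serpina1c*, *Cyp3a11*, *Vsig4*, *Adgre1* and *Mpeg1* were. Depth limits *Mb21d1*, with 64 to 109 counts a library, more than the other members.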
